A study of Mus musculus with 12 samples.

Results

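The genes described here are 9 that are used to recognise tissue macrophages: Cd163, Mrc1, Lyve1, Csf1r, Cd68, Cd14, Adgre1, Fcgr3 and Lyz2. They were chosen by symbol, and every array probe that the platform annotation ties to 1 of these symbols was taken. This gave 14 probes for 8 of the 9 genes, among 34885 probes with a single symbol. No probe listed there carries the symbol Cd68, so that gene was not analysed here. Each probe was read against the probes for olfactory receptors, 1287 in number, whose genes are mostly silent outside the nose, although a few are known elsewhere.

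The samples were common carotid arteries of mice with and without fibulin-5, an elastic fibre protein encoded by Fbln5. The left artery (LCA) had been partially ligated, which disturbs its flow, and the right artery (RCA) of the operated mice was not ligated; both were collected 1 day later. The 4 groups were WT RCA, WT LCA, KO RCA and KO LCA, with 3 Illumina arrays each. WT stands for the mice labelled WildType and KO for those labelled FibVKO, and all samples carry the strain label C57Bl/6J. Every group therefore came from operated mice, and the RCA is no artery of an unoperated animal. The labels give no age or sex and do not name the deleted part of Fbln5. Nothing states that a group's 3 arrays stem from different animals; a p-value here thus covers only the spread among these arrays, which may be technical.

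Resident macrophages sit mostly in the outer coat of a healthy artery, where they clear debris and survey the wall. They depend on the receptor CSF1R and its ligands, carry scavenger receptors such as CD163 (which takes up haemoglobin bound to haptoglobin) and the mannose receptor MRC1, and in arteries often bear the hyaluronan receptor LYVE1. Disturbed flow is known to activate the endothelium and to draw monocytes into the wall, where they become macrophages.

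Signal for these genes was low. The receptor level, taken on each array as the 95th percentile of the olfactory receptor probes, lay between 95.6 and 107 on 11 arrays and at 127 on WT LCA replicate 3. That array also had the smallest share of single-symbol probes above its receptor level, 11.6%, against 22.1% to 44.1% on the others, and the lowest median correlation with the other arrays, 0.691. The probe for Fbln5 lay below the receptor level on all 12 arrays, so it gives no check of the genotype labels.

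No member probe exceeded the receptor level on all 3 arrays of WT RCA or of WT LCA, 1 of 14 did in KO RCA, and 3 of 14 did in KO LCA. Over all single-symbol probes the shares were 17.4%, 7.11%, 19.0% and 20.6% in the same order. Below the level on all arrays of a group were 6 of the 14 member probes for WT RCA and 6 for WT LCA. Over all single-symbol probes 52.4% and 57.1% were, while 47.6% and 42.9% exceeded it on at least 1 array. For KO RCA 8 of the 14 member probes were below it on all arrays, and for KO LCA 5. Over all single-symbol probes 58.7% and 49.4% were, while 41.3% and 50.6% exceeded it on at least 1 array. Without replicate 3, 2 member probes exceeded the level on both remaining arrays in WT LCA, where 22.8% of all probes did, and likewise 2 in WT RCA, where 28.4% did; both probes belong to Lyz2 in each case. The markers that define macrophages most widely, Csf1r and Adgre1, were near background throughout, so these arrays show levels of the single genes below and do not establish a macrophage population. Of 11 blood endothelium genes, 9 exceeded the receptor level on all arrays of WT RCA, 8 of WT LCA, 10 of KO RCA and 10 of KO LCA. Of 12 smooth muscle genes, 4, 1, 5 and 7 did so in the same order. The share of each cell type in the RNA is not known. In RNA of mixed cells, fewer cells of a type and less RNA per cell cannot be told apart.

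**Figure D1:**
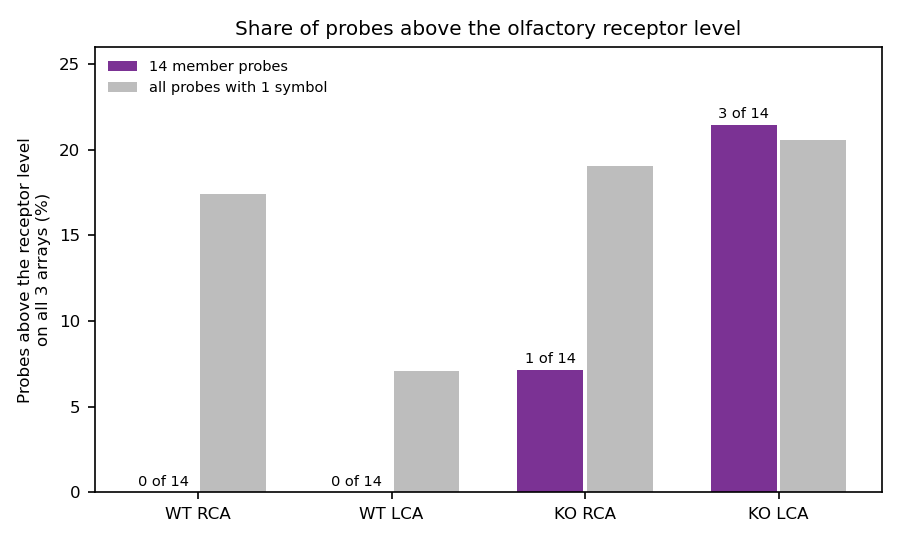
Percentage of probes above the olfactory receptor level on all 3 arrays (vertical axis, from 0) in each group (horizontal axis), for the 14 member probes (purple) and all 34885 single-symbol probes (grey). The member bars stand at 0, 0, 1 and 3 of 14 probes.

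Cd163 and Lyz2 are the genes whose signal cleared the receptor level on whole groups, and the sequences just before their start sites are given for that reason. Both are from RefSeq on GRCm38.p6, 250 bases each, read 5′ to 3′ on the gene's strand and ending at the base before the start. Cd163 lies on the plus strand at chr6:124304401-124304650 and Lyz2 on the minus strand at chr10:117282273-117282522. Capitals mark matches, on either strand, to GAGGAA (the core bound by the myeloid factor PU.1), TGANTCA (AP-1) and TGCTGA (a short motif of MAF factors).
Cd163: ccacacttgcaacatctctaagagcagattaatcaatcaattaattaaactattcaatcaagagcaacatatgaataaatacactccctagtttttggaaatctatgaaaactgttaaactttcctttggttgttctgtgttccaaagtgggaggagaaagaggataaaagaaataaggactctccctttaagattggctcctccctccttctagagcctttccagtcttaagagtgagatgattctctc
Lyz2: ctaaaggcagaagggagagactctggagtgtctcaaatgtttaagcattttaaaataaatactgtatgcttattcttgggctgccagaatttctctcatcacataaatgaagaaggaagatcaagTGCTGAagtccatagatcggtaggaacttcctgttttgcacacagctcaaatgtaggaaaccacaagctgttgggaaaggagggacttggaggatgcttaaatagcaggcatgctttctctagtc
In these windows Cd163 held none of the 3 motifs, and Lyz2 held 1 TGCTGA, which starts 125 bases before the start site. Of 32851 RefSeq promoter windows of this length, 23.3% held GAGGAA, 6.75% TGANTCA and 16.1% TGCTGA. Entries for 5 of the 9 genes were found in the promoter table. Among the other 3, Mrc1 held GAGGAA 3 times, Cd68 held GAGGAA 1 time and TGANTCA at 2 places, and both Fcgr3 entries, which overlap, held GAGGAA and TGCTGA 1 time each. A match describes letters only, and a window without one says nothing about the factor.

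Among the scavenger receptors, Cd163 had signal in ligated KO arteries and hardly elsewhere. On probe ILMN_2964560 the intensities were 139, 141 and 165 in KO LCA, against 79.7, 94.8 and 91.0 in KO RCA. They were 97.2, 103 and 83.4 in WT RCA and 97.5, 86.6 and 81.7 in WT LCA. All 3 KO LCA arrays lay above all 9 others, and 1 of those 9, WT RCA replicate 2, exceeded its receptor level.

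The means of this Cd163 probe were 148 ± 14.4 (SD, n = 3) in KO LCA, 88.5 ± 7.83 in KO RCA, 88.6 ± 8.07 in WT LCA and 94.4 ± 9.92 in WT RCA. KO RCA and WT LCA were at background on every array, so a fold is given as a lower bound, the KO LCA mean over the other group's receptor level or own signal, whichever was higher on each array. Cd163 was at least 1.45-fold higher in KO LCA than in KO RCA, with adjusted p = 0.627 in limma. It was at least 1.36-fold higher in KO LCA than in WT LCA, with adjusted p = 0.0566, just outside the threshold of 0.05. The test of whether ligation acted differently in the genotypes gave adjusted p = 0.919. P-values are adjusted over all 25796 probes tested.

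Subtracting each array's median receptor signal, with a floor of 16, moved the Cd163 results past the threshold. The adjusted p was then 0.00466 for KO LCA against either group and 0.043 for the interaction, while all 9 arrays of the other groups sat at the floor with no spread left. Under the other alternatives, which include leaving out single arrays, the KO LCA against WT LCA p lay between 0.0529 and 0.273. The other Cd163 probe, ILMN_2627340, did not show this pattern: it read 88.5, 88.0 and 94.6 in KO LCA, below the receptor level on all 3 arrays, and reached that level only on WT RCA replicate 1, at 102. It failed the filter on dim probes and was not tested. The annotation gives both probes the same transcript, so the gene's value rests on 1 of its 2 probes.

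The sums over smooth muscle and adipocyte markers stood higher in KO LCA too, while the fibroblast sums overlapped those of both RCA groups. The summed intensity of 11 fibroblast genes lay between 1743 and 2420 in KO LCA, 1133 and 1570 in WT LCA, 1476 and 1770 in KO RCA and 1550 and 2258 in WT RCA. Of the 11, 9 exceeded the receptor level on all KO LCA arrays, against 4 in KO RCA, 3 in WT RCA and 1 in WT LCA. Over all single-symbol probes the shares were 20.6%, 19.0%, 17.4% and 7.11% in that order. The low WT LCA counts include replicate 3, with its receptor level of 127, and 1 of the 11 exceeded the level on no WT LCA array. Against KO RCA, 10 of the 11 were higher in KO LCA, and Pi16 was lower, with means of 558 and 334. For 12 smooth muscle genes the sum was 3223 to 4775 in KO LCA, 2028 to 2910.3 in KO RCA, 1153 to 1832 in WT LCA and 1505 to 1655 in WT RCA. Of the 12, 7 exceeded the receptor level on all KO LCA arrays, against 5, 1 and 4 in the same order. The lowest WT LCA sums of fibroblast and smooth muscle genes, 1133 and 1153, were both those of replicate 3. The sum over 9 adipocyte genes was 1206 to 1536 in KO LCA, 862 to 1050.3 in KO RCA, 854 to 1107 in WT LCA and 889 to 1074 in WT RCA, with 3 of 9 above the receptor level on all KO LCA arrays and 1 in each other group. The sums over 11 blood endothelium genes overlapped between KO LCA and each other group. They were 3302 to 5933 in KO LCA, 3908 to 4992 in KO RCA, 3546 to 4149 in WT LCA and 4162 to 5170 in WT RCA. The part of these cell types in the Cd163 values was not tested.

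**Figure D2:**
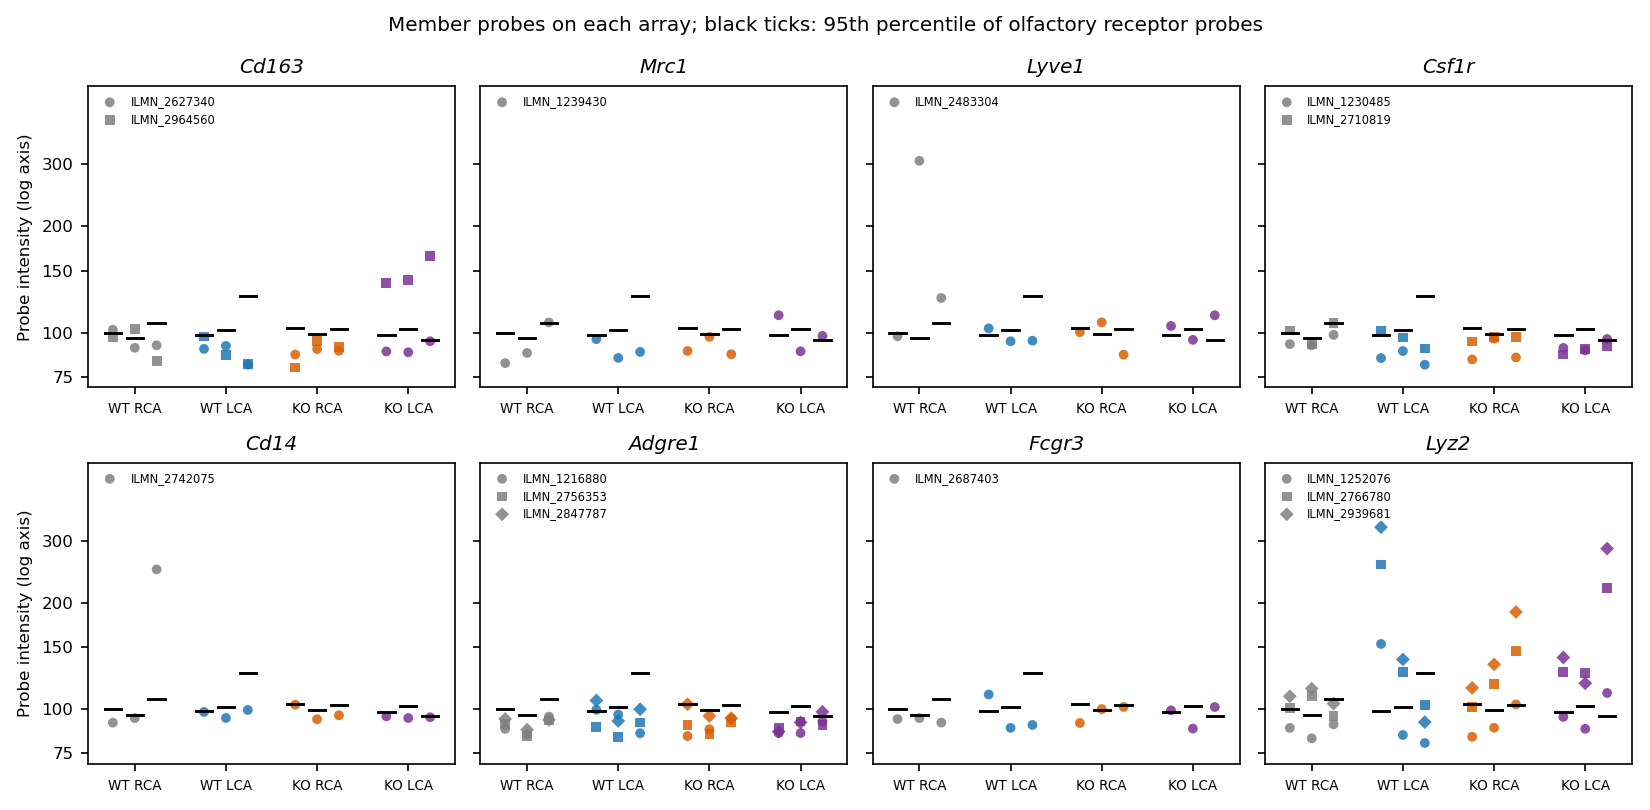
Intensity of each member probe (vertical axis, log scale) on the 3 arrays of each group (horizontal axis, replicates 1 to 3 from left to right), 1 panel per gene, with a marker shape for each probe; black ticks give the array's receptor level. One Cd163 probe stood at 139 to 165 in KO LCA, Lyve1 and Cd14 were high on 1 WT RCA array each (307 and 249), and Lyz2 was spread widely within groups.

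Of the other surface receptors among the 9 genes, Mrc1 and Lyve1 exceeded the receptor level on all 3 arrays of no group. Mrc1, the mannose receptor, was measured by 1 probe that ranged from 82.0 to 112 and exceeded the receptor level on 3 of 12 arrays. Its values in KO LCA were 112, 88.6 and 98.0, of which the first and last exceeded that level, against 88.8, 97.4 and 86.9 in KO RCA, none of which did. These groups overlapped, and the adjusted p in limma was 0.832 for ligation in KO and 0.796 for genotype in LCA.

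Lyve1, which marks a subset of arterial macrophages and also lymphatic endothelium, was high on a single array. Its probe read 100.4, 107 and 86.7 in KO RCA, 105, 95.4 and 112 in KO LCA, 97.7, 307 and 125 in WT RCA and 103, 94.6 and 94.9 in WT LCA. The groups overlapped in every comparison, and WT RCA replicate 2 stood well above all other arrays. Ligation in WT was accompanied by a difference of -0.68 ± 0.33 log2 units (SE), adjusted p = 0.699 in limma, with 2 WT RCA arrays and 1 WT LCA array above the receptor level. Without WT RCA replicate 2 that difference was -0.19. Genotype in RCA gave -0.67 ± 0.33, adjusted p = 1.00, and -0.18 without that array.

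Lymphatic markers did not stand out on the array with the high Lyve1 value. The sum of 7 lymphatic genes was 729 on WT RCA replicate 2, the lowest of that group, whose other arrays had 806 and 1058. The range was 732 to 837 in WT LCA, 727 to 784 in KO RCA and 770 to 883 in KO LCA. Of the 7 genes, 3 exceeded the receptor level on all arrays of KO LCA and 1 in each other group, and 3 or 4 exceeded it on no array of a group. One of the 7, Pdpn (podoplanin, a membrane glycoprotein also made by activated fibroblasts), followed the Cd163 layout, with 154, 120.1 and 126 in KO LCA and at most 100.3 elsewhere.

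Csf1r, the receptor for the growth factors CSF1 and IL-34, stayed near background on both of its probes. Probe ILMN_1230485 ranged from 81.2 to 98.6 and exceeded the receptor level on 1 of 12 arrays, and probe ILMN_2710819 ranged from 86.7 to 106 and exceeded it on 2. The first read 92.8, 92.1 and 98.6 in WT RCA and 84.8, 88.8 and 81.2 in WT LCA, with no overlap but with both groups at background, so no fold is given; limma gave adjusted p = 0.699. It also did not overlap between KO LCA (90.6, 89.2 and 96.0) and WT LCA, adjusted p = 0.788. The second probe did not overlap between KO LCA (86.7, 89.9 and 91.4) and KO RCA (94.4, 97.1 and 97.1), adjusted p = 0.720, and was lower in KO LCA, where the first was not.

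Adgre1, which encodes the macrophage surface protein F4/80, was at or near background on 3 probes. They exceeded the receptor level on 1, 0 and 3 of 12 arrays and ranged from 83.4 to 106. On probe ILMN_2847787 KO RCA read 103, 95.7 and 94.3 and WT RCA 93.9, 87.6 and 93.3, which did not overlap, with adjusted p = 1.00 in limma. The other 2 probes overlapped between these groups.

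Fcgr3, encoding the low-affinity IgG receptor CD16, ranged from 88.1 to 110.1 and exceeded the receptor level on 4 of 12 arrays. KO LCA read 99.3, 88.1 and 101, against 88.6 to 110.1 in WT LCA and 91.4 to 101 in KO RCA, and every comparison overlapped. Together the 7 probes of Mrc1, Csf1r, Adgre1 and Fcgr3 exceeded the receptor level in 14 of 84 readings (16.7%). Over all single-symbol probes the share above it on a single array ran from 11.6% to 44.1%. Of those 7 probes, 6 were tested, and their lowest adjusted p in limma over ligation and genotype was 0.699.

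Cd14, the co-receptor that hands endotoxin to TLR4, was above background on 1 array only. It read 91.6, 94.4 and 249 in WT RCA, and between 93.6 and 103 on the 9 arrays of the other groups. The bound for WT RCA over WT LCA was 1.19-fold, adjusted p = 0.709 in limma, and for WT RCA over KO RCA 1.27-fold, adjusted p = 1.00. Both rested on WT RCA replicate 3, without which WT RCA was at background and the differences were 0.07 log2 units in the other direction. Tlr4 itself was measured on all arrays: 152, 167 and 136 in WT RCA and 278, 226 and 267 in WT LCA, which did not overlap, a difference of 0.76 ± 0.19 (SE), adjusted p = 0.551. In KO it averaged 217 ± 36.4 in RCA and 204 ± 57.7 in LCA.

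Lyz2, the lysozyme gene that macrophages, monocytes and neutrophils share, was the member above the receptor level on the most arrays, and its values were widely spread within groups. Probe ILMN_2939681 exceeded the receptor level on 10 of 12 arrays and ILMN_2766780 on 9. The first read 115, 134 and 189 in KO RCA, 140.2, 118 and 285 in KO LCA, 109, 114 and 104 in WT RCA and 328, 138 and 91.9 in WT LCA. WT LCA replicate 1 and KO LCA replicate 3 were the highest arrays, and WT LCA replicate 3 was the lowest.

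On that Lyz2 probe the WT means were 109 ± 5.31 (SD, n = 3) in RCA and 186 ± 125 in LCA, and the KO means 146 ± 38.2 and 181 ± 90.6. Ligation was accompanied by a difference of 0.56 ± 0.45 log2 units (SE) in WT, adjusted p = 0.716, and 0.23 ± 0.45 in KO, adjusted p = 0.956, in limma. Without WT LCA replicate 1 the first fell to 0.05, and without KO LCA replicate 3 the second was -0.15. The genotypes differed by 0.39 ± 0.45 in RCA, where the groups did not overlap, adjusted p = 1.00, and by 0.06 ± 0.45 in LCA, adjusted p = 0.990. Without KO RCA replicate 3 the RCA difference was 0.19.

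The Lyz2 probes moved together across arrays. ILMN_2766780 read 101, 118 and 146 in KO RCA, 127, 127 and 221 in KO LCA, 101, 109 and 95.7 in WT RCA and 257, 128 and 103 in WT LCA. Its correlation with ILMN_2939681 in log2 intensity was 0.976 over the 12 arrays, which share their normalization. The third probe, ILMN_1252076, was dimmer, above the receptor level on 3 arrays, of which WT LCA replicate 1 read 153 and KO LCA replicate 3 read 111, and it correlated with the others at 0.902 and 0.912. On ILMN_2766780 ligation gave 0.56 ± 0.33 in WT, adjusted p = 0.699, and 0.34 ± 0.33 in KO, adjusted p = 0.841. Genotype gave 0.24 ± 0.33 for the unligated artery, adjusted p = 1.00, and 0.03 ± 0.33 for the ligated one, adjusted p = 0.994, all in limma. The ligation values were 0.17 without WT LCA replicate 1 and 0.077 without KO LCA replicate 3, and the value for the unligated artery was 0.10 without KO RCA replicate 3.

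The probes whose log2 pattern over the 12 arrays was most like that of Lyz2 belonged to Cdk4, a cell cycle kinase (r = 0.945), Tyrobp, a signalling adaptor of myeloid receptors (r = 0.935), and Lyz1, the lysozyme gene next in sequence to Lyz2 (r = 0.935). Without WT LCA replicate 1, these correlations were 0.903, 0.891 and 0.933. Tyrobp read 342, 142 and 115 in WT LCA and 184, 131 and 306 in KO LCA, with the same highest arrays as Lyz2. Lyz1 is a near copy of Lyz2, so signal between them can be shared; its other 2 probes did not follow this pattern, and 1 of them read 506 on KO RCA replicate 3 and at most 119 elsewhere. For Lyve1, the likest were Pde6d, Gpbp1 and Ube3b, with r between 0.967 and 0.983, and between 0.446 and 0.770 without WT RCA replicate 2.

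Neutrophil genes were high on 1 of the same arrays. The sum over 12 neutrophil genes was 2180 on WT LCA replicate 1, with S100a8 (a calprotectin subunit) at 422, against 1172 and 1519 on the other WT LCA arrays. It ranged from 1141 to 1335 in WT RCA, 1126 to 1707 in KO RCA and 1190 to 1339 in KO LCA. KO LCA replicate 3, with the next highest Lyz2, had a sum of 1190 and S100a8 at 98.3. Of the 12 genes, 2 exceeded the receptor level on all arrays of either LCA group, 1 in WT RCA and 0 in KO RCA. On WT LCA replicate 1, where the receptor level was 98.7, S100a9 read 709, Retnlg 143, Csf3r 114, Cxcr2 114, Mmp9 111 and Camp 104, while Ngp, Ltf, Mpo, Elane and Mmp8 lay below it at 87.9 to 97.9. S100a9 was also high on KO RCA replicate 2, at 658, and Csf3r on WT RCA replicate 2, at 255. The part of neutrophil RNA in the Lyz2 values of WT LCA replicate 1 was not tested.

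**Figure D3:**
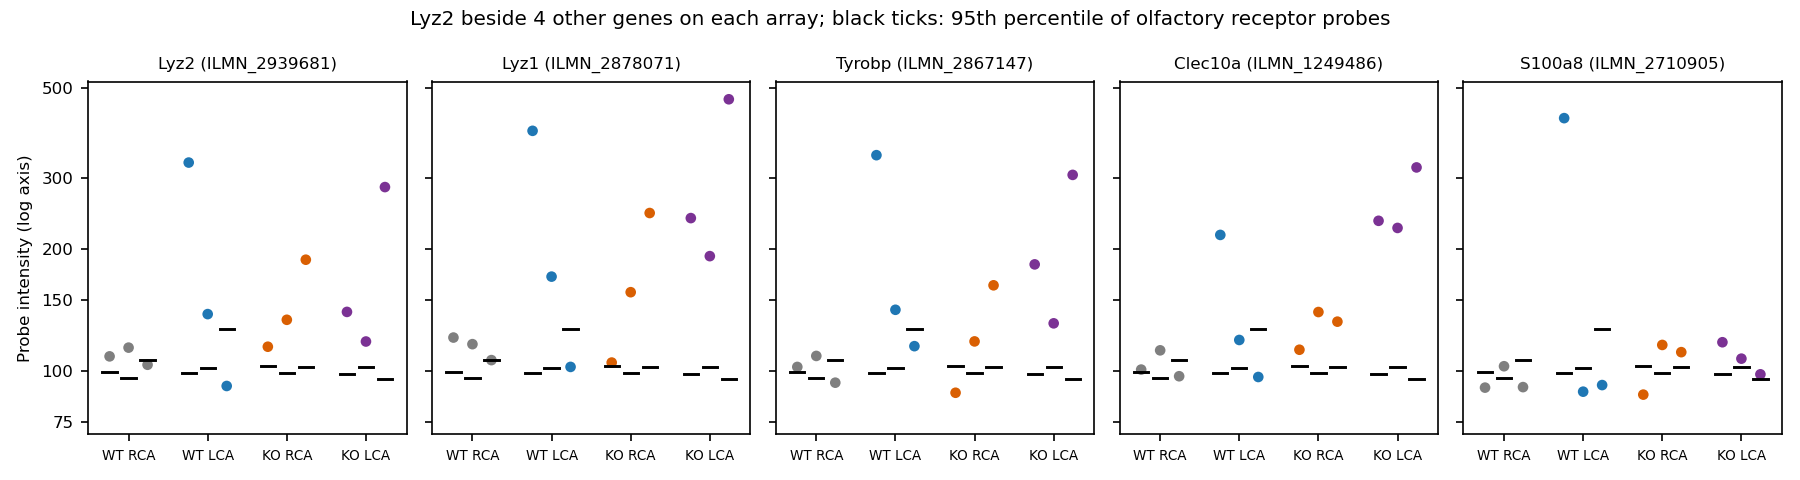
Intensity (vertical axis, log scale) of Lyz2, Lyz1, Tyrobp, Clec10a and S100a8 on the 3 arrays of each group (horizontal axis), with black ticks at the receptor level. Lyz2, Lyz1 and Tyrobp peak on WT LCA replicate 1 and KO LCA replicate 3, S100a8 on the first of these at 422, and Clec10a lies at 226 to 319 in KO LCA.

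Over the 12 member probes that passed the filter on dim probes (at or above the array's median on at least 3 arrays), none passed in limma at an adjusted p under 0.05 in any comparison. Over all 25796 probes 0% passed for ligation in WT, ligation in KO, genotype in RCA and the interaction, and 0.0426% for genotype in LCA. At an unadjusted p under 0.05 the members gave, with ligation in WT, 0 higher and 1 lower (Csf1r), where 2.46% and 4.38% of all probes were. With ligation in KO they gave 1 higher (Cd163) and 0 lower, against 3.25% and 4.3%. Genotype gave 0 higher and 0 lower in RCA, against 2.4% and 1.93%, and 1 higher (Cd163) and 0 lower in LCA, against 4.49% and 1.97%. The interaction gave 2 higher (Cd163 and Csf1r) and 0 lower, against 2.25% and 1.37%.

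With ligation in WT the groups did not overlap for 0 member probes higher and 1 lower, where 4.4% and 6.54% of all probes were. With ligation in KO they did not overlap for 1 higher and 1 lower, against 8.9% and 11.2%. For genotype they did not overlap for 2 higher and 0 lower in RCA, against 6.25% and 5.34%, and for 2 higher and 0 lower in LCA, against 7.61% and 5.35%. The median difference of the 12 member probes was 0.0031 log2 units for ligation in WT, where that of all probes was -0.0038, and 0.073 for ligation in KO, against -0.0032. It was -0.012 for genotype in RCA, against 8.7e-05, and 0.015 for genotype in LCA, against -0.0046. A median of probes near background is compressed towards 0. The comparisons share groups, so their values are not independent of one another.

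**Figure D4:**
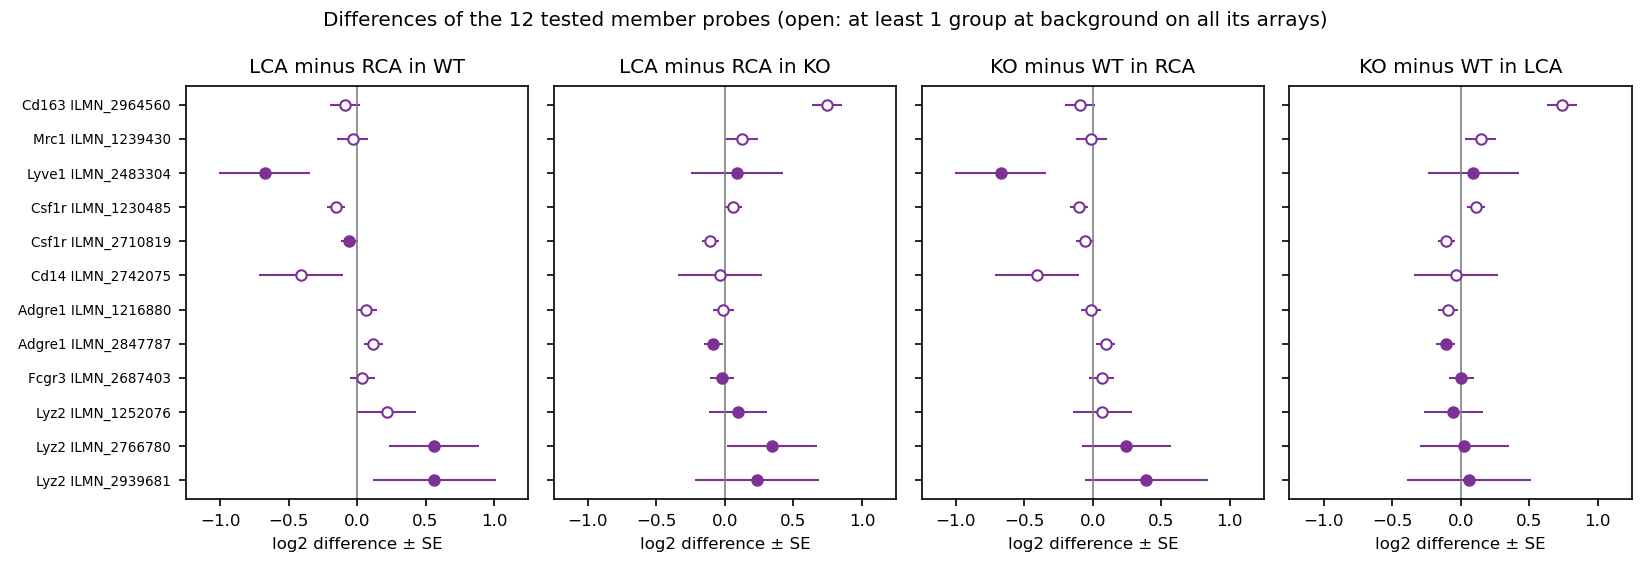
Log2 difference with its SE (horizontal axis) of the 12 tested member probes (vertical axis) in 4 comparisons; open circles mark a comparison in which at least 1 group was at background on all its arrays, so that the point is compressed. The Cd163 probe stands at 0.74 for ligation in KO and for genotype in LCA, and no point passed the adjusted threshold.

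Other genes of the macrophage lineage and the CSF1 axis leaned upward with ligation more than the members did. Of 20 tested, 16 lay above 0 with ligation in WT and 15 in KO, where 48.7% and 48.9% of all probes did. Their medians were 0.095 and 0.089 log2 units, against -0.0012 and -0.0061 over all genes. At 1 probe per gene, 3 and 4 of the 8 member genes lay above 0, with medians of -0.045 and 0.033. Of 20 tested, none passed after adjustment in limma in any comparison of 2 groups. At an unadjusted p under 0.05, 2 were higher with ligation in WT and 2 in KO, where 2.46% and 3.25% of all probes were. For genotype none was called in RCA, and 2 were higher and 1 lower in LCA, against 4.49% and 1.97%. These and the list counts that follow take 1 probe per gene. Laptm5, a lysosomal protein of blood cells, went from 109, 98.5 and 88.4 in WT RCA to 207, 132 and 153 in WT LCA, a difference of 0.72 ± 0.20 log2 units (SE), adjusted p = 0.585, and differed by 0.35 ± 0.20 in KO. Csf1, the ligand, read 759 on WT RCA replicate 2 and between 94.1 and 326 on the others, and ligation in WT gave -0.93 ± 0.63, adjusted p = 0.699. Ctss, a lysosomal protease, read 120.2, 100.3 and 123 in KO RCA and was at background in WT RCA, at least 1.13-fold lower, adjusted p = 1.00. Apoe, the apolipoprotein, differed by -0.42 ± 0.48 for genotype in RCA, adjusted p = 1.00. Tyrobp differed by 0.70 ± 0.42 for ligation in KO, adjusted p = 0.725. Spi1, which encodes PU.1, reached the receptor level on no RCA array, 1 WT LCA array and 2 KO LCA arrays.

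Resident macrophage genes outside the 9 included Clec10a, a galactose-binding lectin, which like the Cd163 probe was highest in KO LCA. Unlike that probe it had signal in every group, above the receptor level on 3 KO RCA, 2 WT RCA and 2 WT LCA arrays. It read 113, 140.1 and 133 in KO RCA, 235, 226 and 319 in KO LCA, 101, 113 and 97.2 in WT RCA and 217, 119 and 96.8 in WT LCA. KO LCA lay above all other arrays, although WT LCA replicate 1 came close to its lowest array. The difference was 1.00 ± 0.26 log2 units (SE) for ligation in KO, adjusted p = 0.627, and 0.92 ± 0.26 for genotype in LCA, adjusted p = 0.466, in limma. With single arrays left out, the adjusted p of the latter in limma ran from 0.0443, without WT LCA replicate 1, to 0.785. Under the other alternatives it ran from 0.322 to 0.865.

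Of 15 tested genes in that list, none passed after adjustment in limma. At an unadjusted p under 0.05, 4 were higher with ligation in KO and 3 with genotype in LCA, where 3.25% and 4.49% of all probes were. The 1 gene lower with ligation in WT, where 4.38% of all probes were, was Cbr2, a carbonyl reductase. It read 506, 115 and 137 in WT RCA and 98.8, 89.9 and 92.0 in WT LCA, a difference of -1.09 ± 0.44 log2 units (SE), adjusted p = 0.699, with WT RCA replicate 1 far above the rest. In KO it read 103, 102 and 105 in RCA and 115, 89.0 and 110.3 in LCA, which overlapped. Gas6, a ligand of the receptor MERTK, differed by -0.87 ± 0.44 with ligation in WT, adjusted p = 0.699, and Selenop, a selenium carrier, by 0.70 ± 0.37, adjusted p = 0.699. Gas6 read 575, 199.9 and 232 in WT RCA and 280, 175 and 89.6 in WT LCA, which overlapped. Its highest value was on WT RCA replicate 1 and its lowest on WT LCA replicate 3. Igf1, a growth factor gene, was at least 1.18-fold higher in KO LCA (131 ± 32.8, SD, n = 3) than in WT LCA (92.4 ± 7.92), adjusted p = 0.530. The folate receptor gene Folr2 ranged from 85.2 to 96.8 and the sialoadhesin gene Siglec1 from 77.9 to 94.8. Stab1, a scavenger receptor shared with endothelium, was above the receptor level on all 12 arrays on probe ILMN_2544343, with WT means of 173 ± 17.9 (SD, n = 3) in RCA and 185 ± 36.3 in LCA and KO means of 135 ± 13.2 and 158 ± 29.7.

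Among genes of haem handling, which include the ligand side of CD163, the haptoglobin gene Hp read 185, 114 and 106 in KO LCA. In KO RCA Hp read 109, 96.7 and 102, which overlapped KO LCA, with 1 array above the receptor level. Hp was at background in WT RCA and WT LCA. The KO LCA signal was at least 1.20-fold above WT LCA, adjusted p = 0.638 in limma. Fth1, ferritin heavy chain, averaged 1965 ± 343 (SD, n = 3) in KO LCA and 1381 ± 290.1 in KO RCA, a difference of 0.52 ± 0.20 log2 units (SE), adjusted p = 0.641. Blvrb, a biliverdin reductase, differed by -0.21 ± 0.09 for genotype in LCA, adjusted p = 0.748. Ftl1, ferritin light chain, differed by 0.33 ± 0.28 with ligation in KO, adjusted p = 0.809, and Slc11a1, a metal transporter of phagosomes, by 0.19 ± 0.33 with ligation in WT, adjusted p = 0.882. Of 10 tested genes 2 were higher with ligation in KO at an unadjusted p under 0.05, where 3.25% of all probes were. With genotype in LCA 1 was higher and 2 lower, against 4.49% and 1.97%. The sum over 9 red cell and platelet genes lay between 2715 and 5592 in KO LCA, which overlapped 3148 to 11144 in KO RCA, 2702 to 4326 in WT LCA and 1567 to 3584 in WT RCA.

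No gene of the scavenger receptor, TLR4 or inflammatory monocyte lists passed after adjustment in limma. Among 11 other scavenger and Fc receptors, 1 was lower with ligation in KO at an unadjusted p under 0.05, where 4.3% of all probes were, and no other comparison of 2 groups gave any. It was Scarb2, a lysosomal membrane protein, with 922, 172 and 233 in KO RCA and 145, 145 and 135 in KO LCA, a difference of -1.24 ± 0.50 log2 units (SE), adjusted p = 0.648, and KO RCA replicate 1 far above the others. Fcgrt, the neonatal Fc receptor, differed by 0.68 ± 0.35 with ligation in KO, adjusted p = 0.694, and read 356 on KO LCA replicate 1 and at most 138 elsewhere. Marco, a scavenger receptor of macrophages, exceeded the receptor level on all arrays of 3 groups, between 97.8 and 189.8, and ligation in WT gave 0.20 ± 0.19, adjusted p = 0.758. Scarb1, the HDL receptor, differed by 0.26 ± 0.20 with ligation in KO, adjusted p = 0.776.

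Of 12 genes around TLR4, 2 were higher with ligation in WT, 1 in KO and 1 with genotype in RCA at an unadjusted p under 0.05, where 2.46%, 3.25% and 2.4% of all probes were. Traf6, a signal adaptor, read 745 on WT LCA replicate 1 and at most 159 elsewhere, and Lbp, the endotoxin binding protein, read 970.4 on WT RCA replicate 3, the array with the high Cd14 value, and at most 424 elsewhere. Ligation in WT gave 0.72 ± 0.62 for Traf6, adjusted p = 0.735, and genotype in RCA gave -1.08 ± 0.78 for Lbp, adjusted p = 1.00. Irak1, a kinase of the pathway, differed by 0.32 ± 0.20 for genotype in LCA, adjusted p = 0.788. Nfkbia, the inhibitor of NF-kappaB, differed by 0.47 ± 0.18 log2 units (SE) in WT and 0.43 ± 0.18 in KO, adjusted p = 0.699 and 0.656 in limma. Of 9 inflammatory monocyte genes none reached an unadjusted p under 0.05, which 1.93% to 4.49% of all probes did in 1 direction. Ly6c1, a surface protein also of endothelium, differed by -0.48 ± 0.29 with ligation in WT, adjusted p = 0.699, Fn1, fibronectin, by 0.68 ± 0.41 with genotype in LCA, adjusted p = 0.788, and Plac8 by 0.09 ± 0.11 with ligation in KO, adjusted p = 0.883. Ccr2, which defines recruited monocytes, ranged from 83.9 to 96.0 over the 12 arrays and exceeded the receptor level on 1 of them.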

How the data were processed

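Total RNA from carotid arteries was labelled as biotinylated cRNA and hybridised to 12 Illumina arrays, 3 in each of 4 groups, per the labels' protocols. The deposited values are linear intensity per probe; all 12 arrays hold the same sorted values, so the deposited intensities had been quantile normalized, and the scanner software is not given in the sources used here. Probes were named through the platform annotation: of 45281 probes, 34885 had 1 symbol, 18 several and 10378 none. The members and gene lists were chosen with earlier results of these data known.

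Intensities were taken to log2 (floor 1). Probes with 1 symbol at or above the array median on at least 3 arrays were kept (25796) and fitted with limma 3.58.1 in R 4.3.3 on 4 group means over all 12 arrays, with eBayes and Benjamini-Hochberg adjustment over all probes at 0.05; the script was tested on simulated data. For each list gene 1 probe was used. Named were all member probes and, from each list, genes passing the threshold or else the 3 of smallest p among genes above the receptor level on all arrays of a group; each such gene is given in at least 1 of its comparisons. Spi1, Folr2, Siglec1, Ccr2, Pdpn, Pi16, Acta2 and the neutrophil genes were named after their values were seen. Likeness was taken for members above the receptor level on at least 6 arrays, with the 3 likest probes named. The number of arrays limits the precision. Equal replicate numbers were not taken as pairs, and the labels do not say whether they share a mouse. Alternatives covered weights, variance model, filter, scaling, background, replicate block and single arrays left out.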

Additional observations from a re-analysis of the deposited data

How the results depend on the processing

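No member probe passed the threshold when single arrays were left out, and under the other alternatives only Cd163 did, with the receptor median subtracted (1.87 log2 units in KO LCA against KO RCA or WT LCA, and for the interaction). The count of probes passing for KO against WT in LCA, 11 as reported, was 4 with array weights, 0 with a trended and robust variance, 18 among probes above the receptor level on at least 3 arrays, 1 with 1 probe per gene, 0 in a fit of the 2 groups alone, and 0 to 25 with single arrays left out. With the receptor median subtracted, the counts reported as 0 became 12 for KO against WT in RCA, 5 for ligation in KO, 10 for ligation in WT and 5 for the interaction, and array weights gave 1 for ligation in WT. With single arrays left out they were 1 to 5, 0 to 6, 1 to 10 and 0 to 3 in the same order. The causes were not tested.

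Directions were followed only for Cd163 probe ILMN_2964560, Lyz2 probes ILMN_2766780 and ILMN_2939681, Lyve1, Cd14 and Clec10a, in chosen comparisons. Among these, directions turned only with single arrays left out. Cd14 ranged from -0.654 to 0.0668 for ligation in WT and from -0.652 to 0.0685 for genotype in RCA. For genotype in LCA, Lyz2 ranged from -0.25 to 0.42 on ILMN_2766780 and from -0.34 to 0.57 on ILMN_2939681, and the latter from -0.15 to 0.49 for ligation in KO.

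Same-numbered RCA and LCA arrays correlated in their deviations from group means at 0.041 to 0.081 in WT and -0.015 to 0.040 in KO. Arrays of different numbers gave -0.054 to 0.0088 in WT and -0.056 to 0.060 in KO. In WT every same-numbered value lay above all WT values of different numbers, but each was below the 0.1 set for pairing. The numbers were therefore not taken as pairs, which does not settle whether they share a mouse. With the replicate number as a fixed block 0 probes passed for ligation in WT, ligation in KO and the interaction; as a random block 10 passed for KO against WT in LCA and 0 elsewhere.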

Other observations

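Markers of other cells gave 2 of the probes that passed for genotype in LCA. Tpm1, a tropomyosin of smooth muscle, was 1.98 ± 0.25 log2 units (SE) higher in KO LCA than in WT LCA, adjusted p = 0.0432 in limma. Acta2, smooth muscle actin, did not pass and read 1049, 1052 and 895 in KO LCA and 514, 257 and 89.9 in WT LCA. Both were also higher in the unligated KO artery. Tpm1 read 374, 539 and 510 in KO RCA and 208, 261 and 252 in WT RCA, and Acta2 334, 1206 and 704 against 170, 277 and 117. Clec9a, a receptor of conventional dendritic cells, fell by 1.00 ± 0.13 log2 units, adjusted p = 0.0432, with 116, 114 and 111 in KO LCA and 231, 199.6 and 254 in WT LCA. Clec9a was also lower in KO RCA, at 118, 151 and 106, than in WT RCA, at 179, 185 and 205. It was 1 of 6 dendritic cell genes tested and the only 1 of them that passed, where 0.0426% of all probes did. Of the 6, 2 were higher in KO LCA than in WT LCA. Zbtb46, on the same list, averaged 109.9 ± 2.45 (SD, n = 3) in KO LCA and 108.7 ± 1.99 in WT LCA. So this is a value of 1 gene and not of the dendritic cell list.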
